A study of Homo sapiens with 8 samples.

Results

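The transcripts described here are 38 genes of the ATF4 stress response and of amino acid synthesis: 7 transcription factors, 7 stress effectors and feedback regulators, 6 enzymes of serine and one-carbon metabolism, 6 other amino acid enzymes, and 12 genes of tRNA export and charging. They were taken from a written list, and each was read from 1 probe set, the one whose average over the 8 arrays was highest. Of the 38, 37 had a probe set among the 18239 genes on the array, and GPT2 was not analysed here. In all, 35 passed the filter on low values, which 13002 genes of the series passed. STC2, with 3.64 to 3.86 log2 units over the 8 arrays, and NUPR1, with 4.07 to 4.30, stayed below it and were not tested. The aminoacyl-tRNA synthetases carry a final 1 in current symbols (AARS1, SARS1 and so on).

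The study measured total RNA of human breast cancer cells on Affymetrix arrays, with 2 arrays in each of 4 groups. The groups were 231BrM cells with doxycycline, 231BrM cells without it, SKBrM3 cells with doxycycline and SKBrM3 cells without it. All 4 groups carry a short hairpin against the receptor tyrosine kinase MET that doxycycline switches on, and the drug was given as 100 ng (no volume stated) for 48 h. 231BrM and SKBrM3 are brain-metastatic derivatives of established breast cancer lines. No group received doxycycline without the hairpin, so the drug and the knockdown cannot be told apart. Whether the 2 arrays of a group came from separate cultures is not given in the sources used here, so p-values reflect the spread among these arrays alone, possibly technical.

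ATF4 is a transcription factor whose mRNA is translated preferentially when kinases phosphorylate the translation initiation factor eIF2, as happens on amino acid shortage or endoplasmic reticulum stress. ATF4 then forms dimers with C/EBP factors and binds C/EBP-ATF response elements in genes for amino acid synthesis, amino acid uptake and tRNA charging. Because it is largely set by translation, ATF4 protein can change while its mRNA does not, and the arrays measured mRNA only. In many cancer cells this programme supplies serine, glycine and one-carbon units for growth.

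The form of the element searched was TGATGNAA, on both strands, in the window from 250 bases before to 50 bases after each gene's start (RefSeq, GRCh38.p14). Windows were present for 31 of the 38 genes. They were missing for PSPH, SHMT2, PYCR1, YARS1, EIF4EBP1, NUPR1 and GPT2. The match was found in 9 of the 31 windows (29.0%), against 1003 of 27305 windows of all genes (3.67%). The 9 stretches are printed because they show which of the genes hold the element close to their start. Each line gives 30 bases 5′ to 3′ on the strand that reads TGATGNAA, with the match in capitals.

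CHAC1, chr15:40953250-40953279, minus strand: ctggcaggagTGATGCAAcggcaggggagg
ASNS, chr7:97872457-97872486, minus strand: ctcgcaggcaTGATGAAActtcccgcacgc
MTHFD1L, chr6:150866347-150866376, plus strand: ccgccggctcTGATGCAAtcgcgccgggcg
AARS1, chr16:70289676-70289705, plus strand: ctaacttggcTGATGCAActgcgagaaaag
MARS1, chr12:57488052-57488081, minus strand: aatccctcgcTGATGCAAccggaaccggcc
NARS1, chr18:57621803-57621832, minus strand: ctacgctctcTGATGCAAcgccggaatcgc
IARS1, chr9:92293693-92293722, plus strand: cgcacggaggTGATGCAAcgcgctgaaaat
TARS1, chr5:33440955-33440984, minus strand: ctggaccagcTGATGCAAtcgaaaggcgcc
CARS1, chr11:3057408-3057437, plus strand: tcctagaatcTGATGCAAccgccgccccgg

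The capitals read TGATGCAA in every line except that of ASNS, which reads TGATGAAA. Only 0.923% of all windows hold TGATGCAA. Relative to the first transcribed base (counted as 1, with no 0), the first base of the match on the gene's strand lay at -209 in CHAC1, -187 in AARS1, -129 in MTHFD1L and -68 in ASNS. In the other 5, all of them synthetase genes, it lay between -13 (IARS1) and 15 (NARS1). The cAMP response element TGACGTCA was found in 1 of 31 windows, that of PPP1R15A, against 1.98% of all windows. Such matches are descriptions of the sequence and not evidence of binding.

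Before the comparisons, the arrays were checked against their labels. MET was 5.85 and 5.35 on the 231BrM doxycycline arrays, against 9.45 and 9.26 on the 231BrM arrays without it. On the arrays labelled SKBrM3 it was 5.76 and 5.71 with doxycycline, against 9.25 and 9.20 without. The line label of the SKBrM3 arrays did not match the known markers of SK-BR-3 cells, an ERBB2-amplified luminal line: ERBB2 was 6.76 to 6.89 on 231BrM arrays and 6.70 to 7.11 on the SKBrM3 arrays. The epithelial genes CDH1 and ESRP1 and the luminal factor TFAP2B lay below the filter on all 8 arrays. The mesenchymal marker VIM was 12.77 to 12.91 on 231BrM arrays and 12.72 to 12.78 on the SKBrM3 arrays. Of the 10 SK-BR-3 markers, FOXA1 alone was higher on every SKBrM3 array (4.29 to 5.03 on 231BrM arrays, 5.82 to 6.39 on SKBrM3 arrays). Both lines are therefore named by their labels only. Of 8 markers of fibroblasts, endothelium, leukocytes and astrocytes, 5 (DCN, LUM, PTPRC, CD14 and AQP4) lay below the filter on all arrays, and PECAM1, VWF and GFAP lay between 4.82 and 5.71.

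One array stood apart. Between the 2 doxycycline arrays of 231BrM 68 genes differed by over 2-fold, 66 of them lower on replicate 1, whereas 1, 1 and 0 genes did so within the other groups. For the actin controls, the 3′ signal exceeded the 5′ signal by 1.24 log2 units on that array and by 0.46 to 0.59 on the other 7. For DDIT4, MTHFD2, DDIT3, JDP2, EPRS1 and the counts of called genes, results in 231BrM are therefore also given without it. Without it the doxycycline group holds 1 array and takes its spread from the other groups. Most other 231BrM values include that array. Some small ones change sign without it (PSPH from 0.13 to -0.07, MTHFD1L from 0.04 to -0.09), while XPOT (-0.17) and EIF4EBP1 (0.12) keep theirs. Correlations across genes were 0.995 to 0.999 within a group and 0.975 to 0.979 between the lines.

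Doxycycline lowered few of the genes, and DDIT4 was the one called in both lines. In 231BrM DDIT4 fell by 1.14 log2 units, and 0 genes of the list were called higher. In the SKBrM3 arrays DDIT4 fell by 1.14, MTHFD2 by 0.53 and XPOT by 0.40, and again 0 were called higher. A gene was called at an adjusted p under 0.05 (limma, Benjamini-Hochberg over all 13002 genes). One of 35 called lower in 231BrM stands beside 0.162% of all genes called lower there. The 3 of 35 called lower in the SKBrM3 arrays stand beside 2.28% of all genes called lower and 3.43% called in either direction. With no adjustment, at a p under 0.05, the list held 2 genes higher and 3 lower in 231BrM, and 2 higher and 6 lower in the SKBrM3 arrays. At that threshold 6.15% of all genes were higher and 3.74% lower in 231BrM, and 10.4% were higher and 9.81% lower in the SKBrM3 arrays. The median log2 difference of the list was 0.04 in 231BrM and -0.05 in the SKBrM3 arrays, and that of all genes 0.05 and 0.01. Differences within 0.2 log2 units of 0 were found for 29 of the 35 in 231BrM (83.4% of all genes) and for 27 in the SKBrM3 arrays (73.3% of all genes). In bulk RNA a lower level in every cell and a loss of cells with a high level cannot be told apart.

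**Figure D1:**
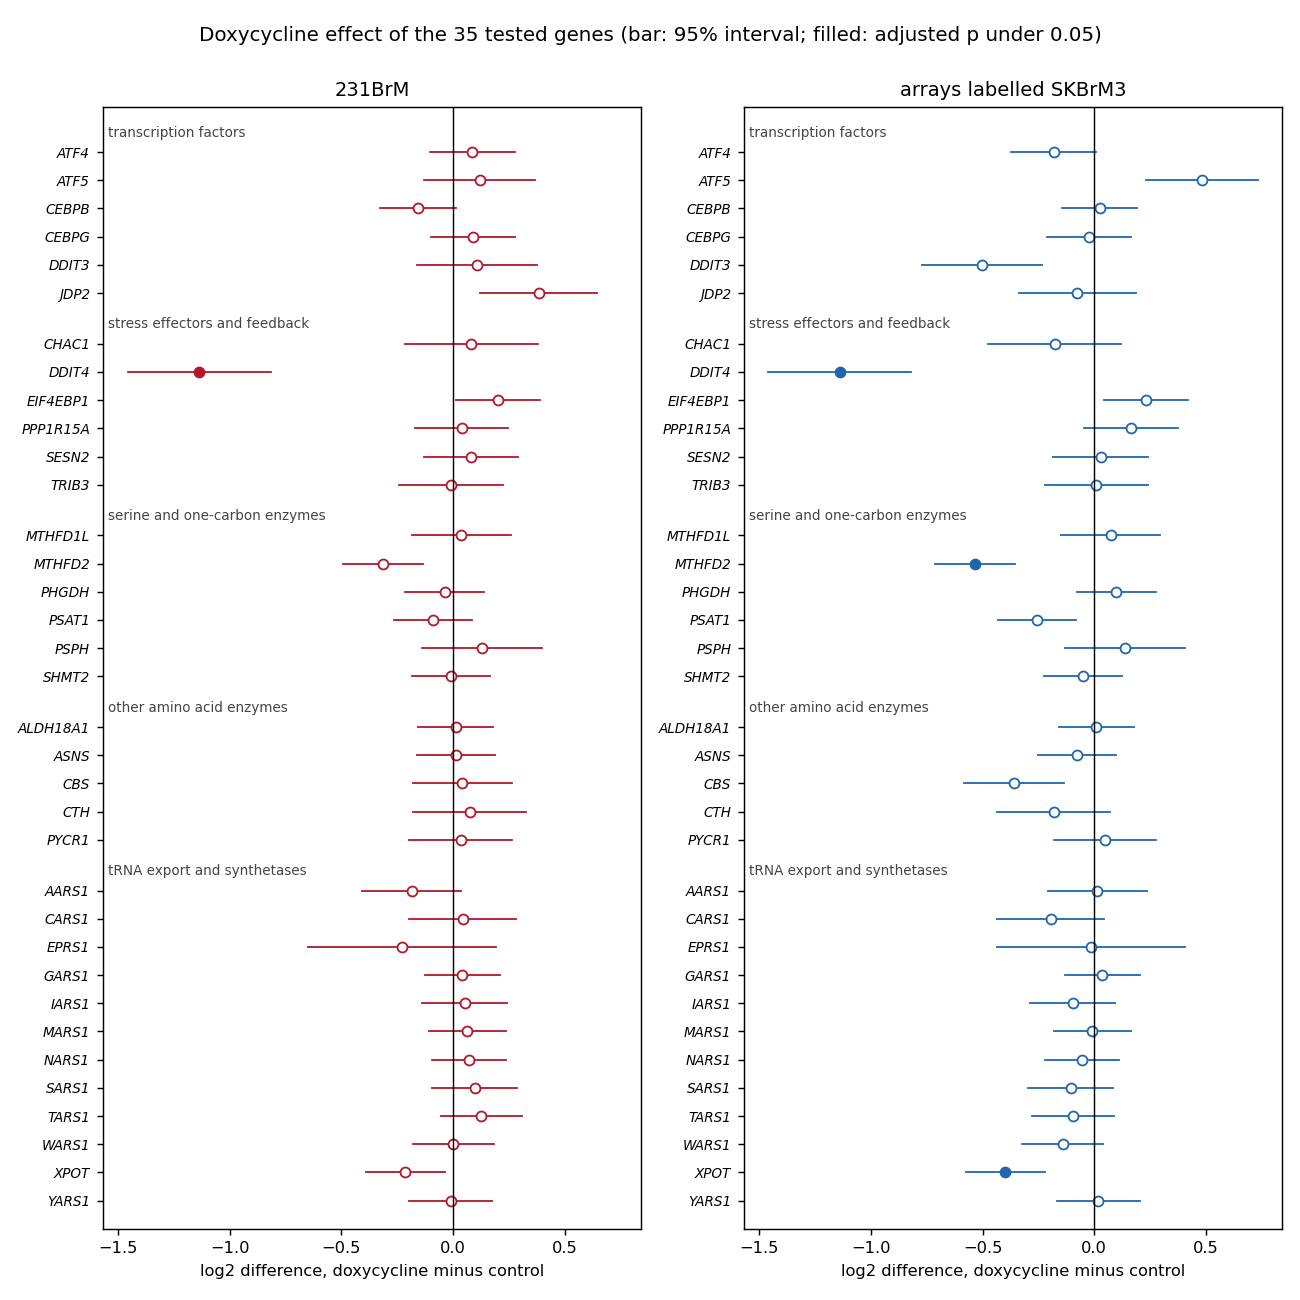
Log2 difference, doxycycline minus control, of the 35 tested genes by role (rows), in 231BrM on the left and in the arrays labelled SKBrM3 on the right. Points are limma estimates from 2 arrays per group, bars 95% intervals, and filled points have an adjusted p under 0.05: DDIT4 in 231BrM, and DDIT4, MTHFD2 and XPOT in the SKBrM3 arrays.

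DDIT4 encodes REDD1, an inhibitor of mTORC1 signalling that ATF4 induces, and that hypoxia and glucocorticoids also induce. In 231BrM it was 7.98 and 8.17 with doxycycline, against 9.27 and 9.16 without. The SKBrM3 arrays gave 7.45 and 7.61 with doxycycline, against 8.46 and 8.88 without. Both doxycycline arrays lay below both control arrays in each line. The differences were -1.14 in 231BrM (SE 0.140, limma adjusted p = 0.0242) and -1.14 in the SKBrM3 arrays (SE 0.140, limma adjusted p = 0.0046), a 2.20-fold lower level in both. The mean over both lines was -1.14 (SE 0.099, limma adjusted p = 0.000744). The difference between the lines was 0.00, with a 95% interval from -0.45 to 0.46, so a moderate inequality between them was not excluded by these arrays. Without 231BrM doxycycline replicate 1 the fall in 231BrM was 1.04 (limma adjusted p = 0.0279). The call in 231BrM was lost without 231BrM control replicate 1 (limma adjusted p = 0.401) or 2 (0.284), and without either SKBrM3 doxycycline array (0.061). It was also lost with array weights (limma adjusted p = 0.0995) and in the 4 arrays of the line alone (0.123). Over all 17 alternatives, called or not, the 231BrM estimates lay between -1.23 and -1.04. In the SKBrM3 arrays the call was lost in 1 of 17 alternatives, without SKBrM3 doxycycline replicate 1 (-1.06, limma adjusted p = 0.0751). The mean over both lines was called in 16 of 16 alternatives. DDIT4 has 1 probe set on the array, so no other probe set could be set beside it.

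**Figure D2:**
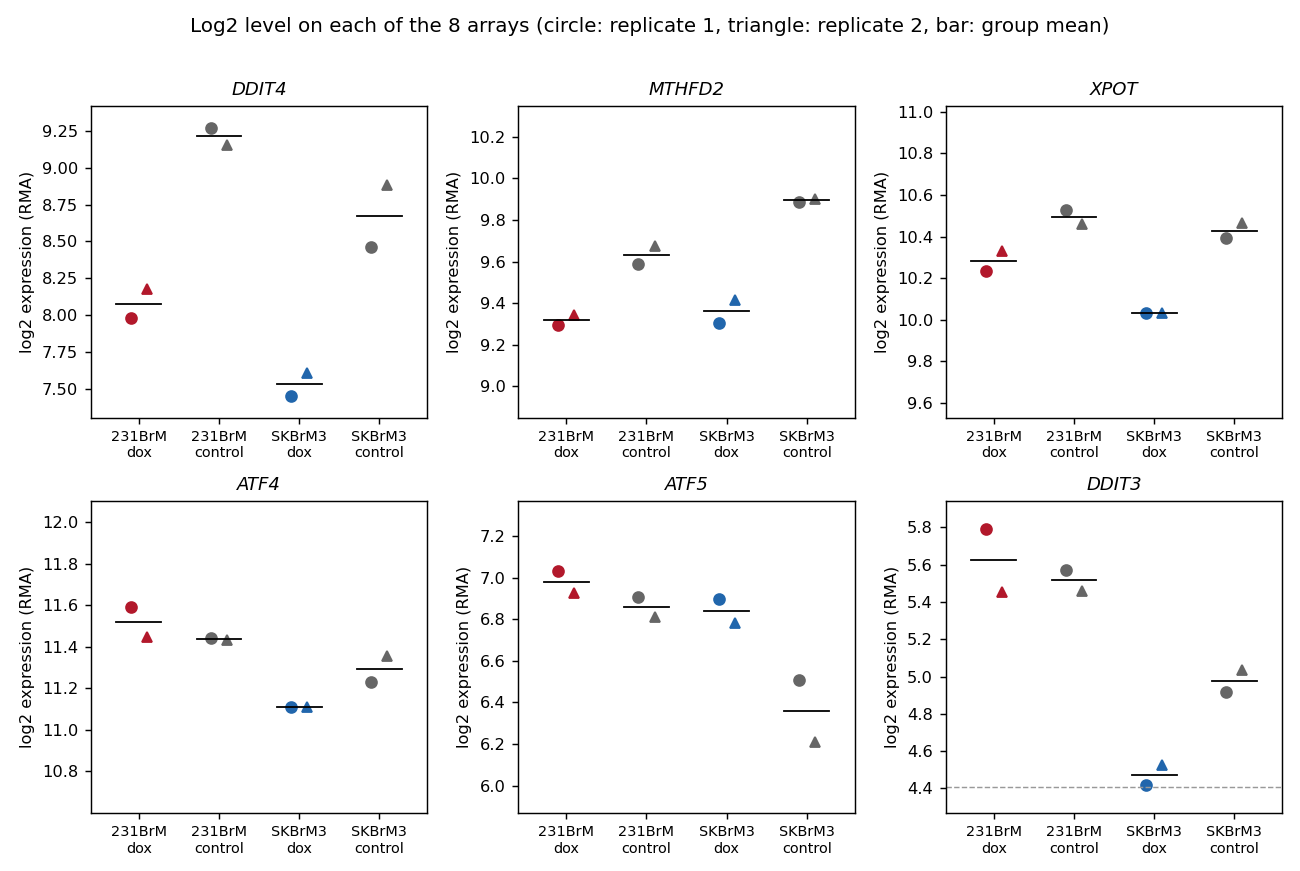
Log2 level of 6 genes on each of the 8 arrays (circle, replicate 1; triangle, replicate 2; bar, group mean; each panel has its own range; the dashed line is the filter level of 4.41). DDIT4 lies below its control arrays in both lines, MTHFD2 and XPOT lie lower with doxycycline by less, and ATF4 shows no gap in 231BrM as large as those.

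The stretch of 250 bases before the start of DDIT4 held no match to TGATGNAA. It is shown because DDIT4 moved most, with the first transcribed base in capitals and GC content of 68.9%.

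DDIT4, chr10:72273674-72273924, plus strand: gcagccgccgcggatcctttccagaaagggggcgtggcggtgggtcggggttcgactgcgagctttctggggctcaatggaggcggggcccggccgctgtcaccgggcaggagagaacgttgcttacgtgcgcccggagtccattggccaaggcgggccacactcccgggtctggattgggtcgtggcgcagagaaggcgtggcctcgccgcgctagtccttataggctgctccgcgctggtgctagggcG

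MTHFD2 encodes a mitochondrial folate enzyme that passes one-carbon units on after serine is split. In 231BrM its level was 9.30 and 9.34 with doxycycline, against 9.59 and 9.67 without. On SKBrM3 arrays the level was 9.31 and 9.42 with doxycycline, against 9.89 and 9.90 without. The groups did not overlap in either line. The difference in the SKBrM3 arrays was -0.53 (SE 0.079, limma adjusted p = 0.0112), and that in 231BrM, -0.31, did not pass (SE 0.079, limma adjusted p = 0.28). The mean over both lines was -0.42 (SE 0.056, limma adjusted p = 0.00676). The lines were not shown to differ: the difference of 0.22 had an interval from -0.03 to 0.47 (limma adjusted p = 0.507). The other 4 probe sets of MTHFD2 gave -0.57 to -0.72 in the SKBrM3 arrays and -0.11 to -0.33 in 231BrM. Leaving out any 1 of the 4 SKBrM3 arrays ended the SKBrM3 call, at estimates of -0.48 to -0.59 and limma adjusted p-values of 0.0565 to 0.136. The mean over both lines lost its call only without 231BrM control replicate 2 (-0.40, limma adjusted p = 0.0515). Without 231BrM doxycycline replicate 1 the difference in 231BrM was -0.29 (limma adjusted p = 0.267).

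XPOT encodes exportin-t, which carries mature tRNAs out of the nucleus. In 231BrM it was 10.23 and 10.33 with doxycycline, against 10.53 and 10.46 without. XPOT was 10.03 on both SKBrM3 doxycycline arrays, against 10.39 and 10.46 without. The 2 control groups lay close together, and every doxycycline array lay below all 4 control arrays. The difference was -0.40 in the SKBrM3 arrays (SE 0.077, limma adjusted p = 0.0307) and -0.31 over both lines (SE 0.055, limma adjusted p = 0.0247), while -0.21 in 231BrM did not pass (limma adjusted p = 0.453). The difference between the lines was 0.18 with an interval from -0.07 to 0.43 (limma adjusted p = 0.564). The SKBrM3 call was lost without any 1 of the 4 SKBrM3 arrays or either 231BrM control array (limma adjusted p = 0.072 to 0.226) and with the replicate number as a block (0.0515). The call over both lines was lost in the same 6 omissions (limma adjusted p = 0.0853 to 0.135). XPOT has 1 probe set.

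Upstream of MTHFD2 and XPOT, shown for the same reason, TGATGNAA was absent as well. These 250 bases had a GC content of 62.5% and 70.1%.

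MTHFD2, chr2:74198365-74198615, plus strand: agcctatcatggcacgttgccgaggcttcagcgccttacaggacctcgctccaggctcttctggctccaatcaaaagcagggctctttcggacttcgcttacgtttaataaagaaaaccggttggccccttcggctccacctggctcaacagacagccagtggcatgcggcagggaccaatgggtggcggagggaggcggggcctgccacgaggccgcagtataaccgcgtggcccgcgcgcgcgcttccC
XPOT, chr12:64404142-64404392, plus strand: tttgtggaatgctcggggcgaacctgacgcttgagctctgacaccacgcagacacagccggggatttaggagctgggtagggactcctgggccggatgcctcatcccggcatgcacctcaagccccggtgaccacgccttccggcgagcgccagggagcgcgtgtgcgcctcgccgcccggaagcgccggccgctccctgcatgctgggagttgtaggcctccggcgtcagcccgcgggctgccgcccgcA

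Over both lines together, 3 of 35 genes were called lower (DDIT4, MTHFD2 and XPOT), beside 2.07% of all genes called lower, and 0 were called higher, beside 0.969% of all genes called higher. Of the difference of the doxycycline effect between the lines, 0 of 35 were called, beside 0.0231% of all genes, and with unadjusted p under 0.05 the limma test gave 3 higher and 1 lower in 231BrM. Those 4 were DDIT3, JDP2, CBS and ATF5. At that threshold 892 of all 13002 genes were higher and 560 lower in 231BrM. Groups with and without doxycycline did not overlap for 15 of 35 genes in 231BrM (8 higher, 7 lower), beside 37.9% of all genes. In the SKBrM3 arrays they did not overlap for 23 (7 higher, 16 lower), beside 59.6% of all genes.

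ATF4 mRNA itself was not called. It was 11.59 and 11.45 with doxycycline in 231BrM, against 11.44 and 11.43 without. It was 11.11 on both SKBrM3 doxycycline arrays, against 11.23 and 11.35 without. The 231BrM difference of 0.09 (interval -0.11 to 0.28, limma adjusted p = 0.726) and the SKBrM3 difference of -0.18 (interval -0.37 to 0.01, limma adjusted p = 0.269) have opposite signs. The difference between the lines, 0.27, did not pass (limma adjusted p = 0.452). The only ATF4 probe set is of a kind (_x_at) that may also bind other transcripts.

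Of the other 5 tested transcription factors, 0 were called in either line by limma, with 1 higher in 231BrM, and 1 higher and 1 lower in the SKBrM3 arrays, where p was left unadjusted (under 0.05). ATF5, a relative of ATF4 that is also controlled by translation, was 6.90 and 6.78 with doxycycline in the SKBrM3 arrays, against 6.51 and 6.21 without. In 231BrM it was 7.03 and 6.93, against 6.91 and 6.81. The SKBrM3 difference of 0.48 (SE 0.110, limma adjusted p = 0.0534) just missed the threshold, and 231BrM gave 0.12 (limma adjusted p = 0.71), while a second probe set gave 0.21 and in 231BrM -0.03. DDIT3, which encodes CHOP, a C/EBP factor of prolonged stress, was 4.42 and 4.53 with doxycycline in the SKBrM3 arrays, against 4.92 and 5.03 without, close to the filter level of 4.41. In 231BrM it was 5.79 and 5.46, against 5.57 and 5.46. The SKBrM3 difference of -0.50 missed the threshold too (SE 0.117, limma adjusted p = 0.0568), and its second probe set gave -0.22. In 231BrM DDIT3 differed by 0.11 (limma adjusted p = 0.755), and by -0.06 without doxycycline replicate 1. The difference between the lines, 0.61, did not pass (limma adjusted p = 0.28). ATF5 and DDIT3 passed in the SKBrM3 arrays without either 231BrM doxycycline array (limma adjusted p = 0.0207 and 0.00668). Over all alternatives the limma adjusted p ran from 0.0128 to 0.318 for ATF5 and from 0.0062 to 0.336 for DDIT3.

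CEBPB, a C/EBP partner of ATF4, was 10.02 and 10.09 with doxycycline in 231BrM, against 10.23 and 10.19 without, a difference of -0.16 (limma adjusted p = 0.512). CEBPB in the SKBrM3 arrays was 9.72 and 9.77, against 9.70 and 9.74. JDP2, a repressor of AP-1 target genes, was 5.38 and 5.04 with doxycycline in 231BrM, against 4.92 and 4.74 without, a difference of 0.38 (limma adjusted p = 0.389). It was 0.22 without doxycycline replicate 1. SKBrM3 levels of JDP2 were 4.10 and 4.13, against 4.19 and 4.20, all under the filter level. CEBPG, another C/EBP partner, differed by 0.09 in 231BrM and -0.02 in the SKBrM3 arrays. A second probe set of CEBPG gave -0.13 in 231BrM and -0.38 in the SKBrM3 arrays.

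Among stress effectors, DDIT4 alone was called. EIF4EBP1, which encodes a repressor of cap-dependent translation, was 10.10 and 9.94 with doxycycline in 231BrM, against 9.85 and 9.79 without. The SKBrM3 arrays gave 10.42 and 10.38, against 10.15 and 10.18. The doxycycline arrays lay above the control arrays in both lines, with differences of 0.20 and 0.23 that did not pass (limma adjusted p = 0.491 and 0.17), nor did their mean of 0.22 (limma adjusted p = 0.0942). The other 2 probe sets gave 0.16 and 0.22 in 231BrM and 0.14 and 0.23 in the SKBrM3 arrays. TRIB3, a pseudokinase that restrains ATF4 and is often read as a marker of its activity, differed by -0.01 in 231BrM and 0.01 in the SKBrM3 arrays with 95% intervals from -0.24 to 0.22 and from -0.22 to 0.24. SESN2, a leucine-sensing inhibitor of mTORC1, gave 0.08 and 0.03. CHAC1, which degrades glutathione, gave 0.08 and -0.18, and PPP1R15A, the stress-induced subunit of the eIF2 phosphatase, gave 0.04 and 0.16.

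Of the 6 serine and one-carbon enzymes, MTHFD2 was the one called. PSAT1, the aminotransferase of serine synthesis, differed by -0.26 in the SKBrM3 arrays (SE 0.077, limma adjusted p = 0.112) and by -0.09 in 231BrM. Its 8 probe sets ran from -0.15 to -0.37 in the SKBrM3 arrays. PHGDH, the first enzyme of serine synthesis, differed by -0.04 in 231BrM and 0.10 in the SKBrM3 arrays. PSPH, the last, differed by 0.13 and 0.14, and SHMT2, which splits serine in mitochondria, by -0.01 and -0.05. Other probe sets of PSPH gave 0.09 and 0.38 in 231BrM and -0.22 and -0.03 in the SKBrM3 arrays. MTHFD1L, the mitochondrial formate producer, gave 0.04 and 0.07. Thus, in the fit of all 8 arrays, the serine synthesis genes and MTHFD2 did not share a called change. Whether PSAT1 passed in the SKBrM3 arrays depended on the arrays used to estimate the spread, while its difference there stayed at -0.26. PSAT1 and MTHFD2 (-0.53) were both lower in the SKBrM3 arrays, while PHGDH and PSPH were higher there (0.10 and 0.14).

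Of the 5 other amino acid enzymes tested, 0 were called by limma, with 0 in 231BrM and 1 (CBS, lower) in the SKBrM3 arrays at an unadjusted p under 0.05. CBS, the first enzyme of transsulfuration, was 4.86 and 4.93 with doxycycline in the SKBrM3 arrays, against 5.17 and 5.34 without, a difference of -0.36 (SE 0.097, limma adjusted p = 0.0889). In 231BrM CBS was 5.22 and 5.04, against 5.03 and 5.13. The difference between the lines of 0.40 did not pass (limma adjusted p = 0.352). CTH, the next enzyme, gave 0.07 in 231BrM and -0.18 in the SKBrM3 arrays. ASNS, asparagine synthetase, a classical ATF4 target, gave 0.01 and -0.08. Its levels were 9.48 and 9.47 against 9.42 and 9.50 in 231BrM. In the SKBrM3 arrays they were 9.51 and 9.49 against 9.53 and 9.62. Other probe sets of ASNS gave -0.07 to 0.10 in 231BrM and -0.09 to -0.23 in the SKBrM3 arrays. The proline synthesis genes ALDH18A1 and PYCR1 gave 0.01 to 0.05 in both lines. A second probe set of ALDH18A1 gave -0.17 in 231BrM and -0.21 in the SKBrM3 arrays. The other 4 probe sets of PYCR1 past the filter gave -0.08 to -0.26 in 231BrM and 0.08 to 0.18 in the SKBrM3 arrays.

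None of the 11 aminoacyl-tRNA synthetases, which charge tRNAs with amino acids, was called in either line by limma, and 0 had an unadjusted p under 0.05. Their differences ran from -0.23 (EPRS1) to 0.13 (TARS1) in 231BrM and from -0.20 (CARS1) to 0.04 (GARS1) in the SKBrM3 arrays. EPRS1 was 8.80 on 231BrM doxycycline replicate 1 and 9.44 on replicate 2, and its difference was 0.09 without replicate 1. MARS1 differed by 0.06 in 231BrM, while another of its probe sets gave -0.56.

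The 9 genes with TGATGNAA near their start held 0 called genes in either line. Their median difference was 0.05 in 231BrM (from -0.19 to 0.13) and -0.08 in the SKBrM3 arrays (from -0.20 to 0.07). The 21 tested genes with a window and no match held 1 called gene in 231BrM and 3 in the SKBrM3 arrays, and their medians were 0.04 and -0.08. Of all genes 0.162% were called in 231BrM and 3.43% in the SKBrM3 arrays, so 0 of 9 does not set the genes with a match apart.

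Across the 35 genes the doxycycline effects in the 2 lines, which share no arrays, correlated at a Pearson r of 0.69, and at 0.31 for the 34 without DDIT4. Over all 13002 genes r was 0.39. The sign was the same in both lines for 15 of 35 genes (42.9%), against 57.1% of all genes. These are descriptions across genes, which are not independent.

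**Figure D3:**
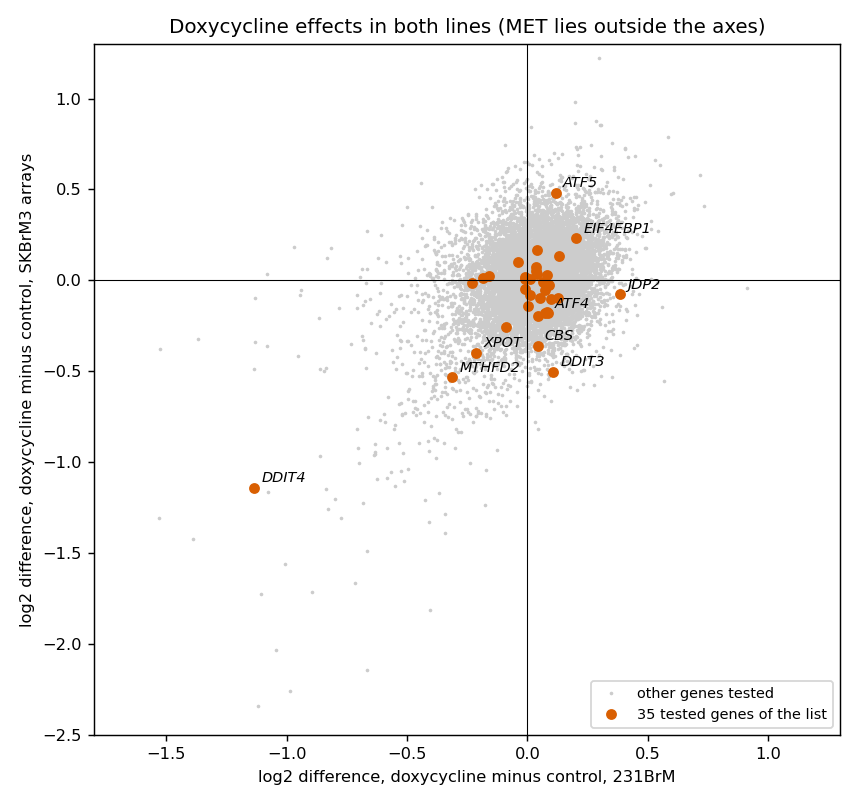
Log2 difference, doxycycline minus control, in 231BrM (horizontal) and in the SKBrM3 arrays (vertical). Orange points are the 35 tested genes and grey points the other genes tested, without MET, which lies outside the axes. DDIT4 lies far from the other 34, at -1.14 on both axes.

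The lines differed more in these genes without doxycycline than either did with it, as they did in genes at large. Of 35 genes, 17 were called between the 231BrM and SKBrM3 arrays, 10 higher and 7 lower in 231BrM. The 10 include JDP2, which passed the filter only through 231BrM, where it is high. Of all genes 39.7% were called, 19.8% higher and 19.9% lower. With any 1 control array left out the number was lower, and so was the share of all genes called. Groups did not overlap for 30 of 35 genes (14 higher, 16 lower), beside 76.8% of all genes. The median difference was 0.02 for the list and -0.05 for all genes.

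Of the 6 tested transcription factors 4 were called higher in 231BrM and 0 lower: JDP2, DDIT3, ATF5 by 0.50 and CEBPB by 0.49. A second probe set of ATF5 gave only 0.07. JDP2 was 4.92 and 4.74 in 231BrM and 4.19 and 4.20 in the SKBrM3 arrays (difference 0.63, SE 0.116, limma adjusted p = 0.00264), with its second probe set at 0.67. Its SKBrM3 values all lay under the filter level of 4.41, so it was tested only because of 231BrM, where it is high, and the size of its difference is uncertain. DDIT3 was 5.57 and 5.46 in 231BrM and 4.92 and 5.03 in the SKBrM3 arrays (difference 0.54, SE 0.117, limma adjusted p = 0.00632). It lost the call without 231BrM control replicate 1 (0.48, limma adjusted p = 0.0549) or SKBrM3 control replicate 1 (0.48, limma adjusted p = 0.0525). ATF4 mRNA did not pass (0.14, limma adjusted p = 0.209). Of the effectors, DDIT4 (0.54) and SESN2 (0.48) were higher in 231BrM and EIF4EBP1 (-0.34) was lower. A second probe set of SESN2 gave only 0.06. Of the 17 called genes 13 have other probe sets past the filter, 26 in all, and all 26 gave the direction of the call.

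Among the enzymes, PHGDH was 7.77 and 7.81 in 231BrM and 6.95 and 7.07 in the SKBrM3 arrays. Its difference of 0.78 (SE 0.077, limma adjusted p = 0.000106) was the only call upward among the 11 tested enzymes. MTHFD1L (-0.42), PYCR1 (-0.41), ALDH18A1 (-0.37) and MTHFD2 (-0.26) were lower in 231BrM. So the first enzyme of serine synthesis and the mitochondrial folate and proline enzymes differed in opposite directions.

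The synthetases differed in both directions as well. SARS1, the seryl-tRNA synthetase, was 10.08 and 10.10 in 231BrM and 9.10 and 9.17 in the SKBrM3 arrays (difference 0.95, SE 0.083, limma adjusted p = 5.41e-05). CARS1, for cysteine, was 8.73 and 8.63 in 231BrM and 7.81 and 7.91 in the SKBrM3 arrays (difference 0.82, SE 0.105, limma adjusted p = 0.000411), and its other 2 probe sets gave 0.95 and 0.89. Glycyl-tRNA synthetase, GARS1, was higher by 0.51. TARS1, for threonine, was 10.69 and 10.74 in 231BrM and 11.30 and 11.31 in the SKBrM3 arrays (difference -0.59, SE 0.080, limma adjusted p = 0.00053), and its other 2 probe sets gave -0.62 and -0.59. NARS1, for asparagine, was lower by 0.21 in 231BrM (limma adjusted p = 0.045). Of the 9 genes with TGATGNAA near their start, 4 were called between the lines: CARS1 higher, and TARS1, MTHFD1L and NARS1 lower in 231BrM. That stands beside 11 of the 21 tested genes with a window and no match, and 39.7% of all genes.

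**Figure D4:**
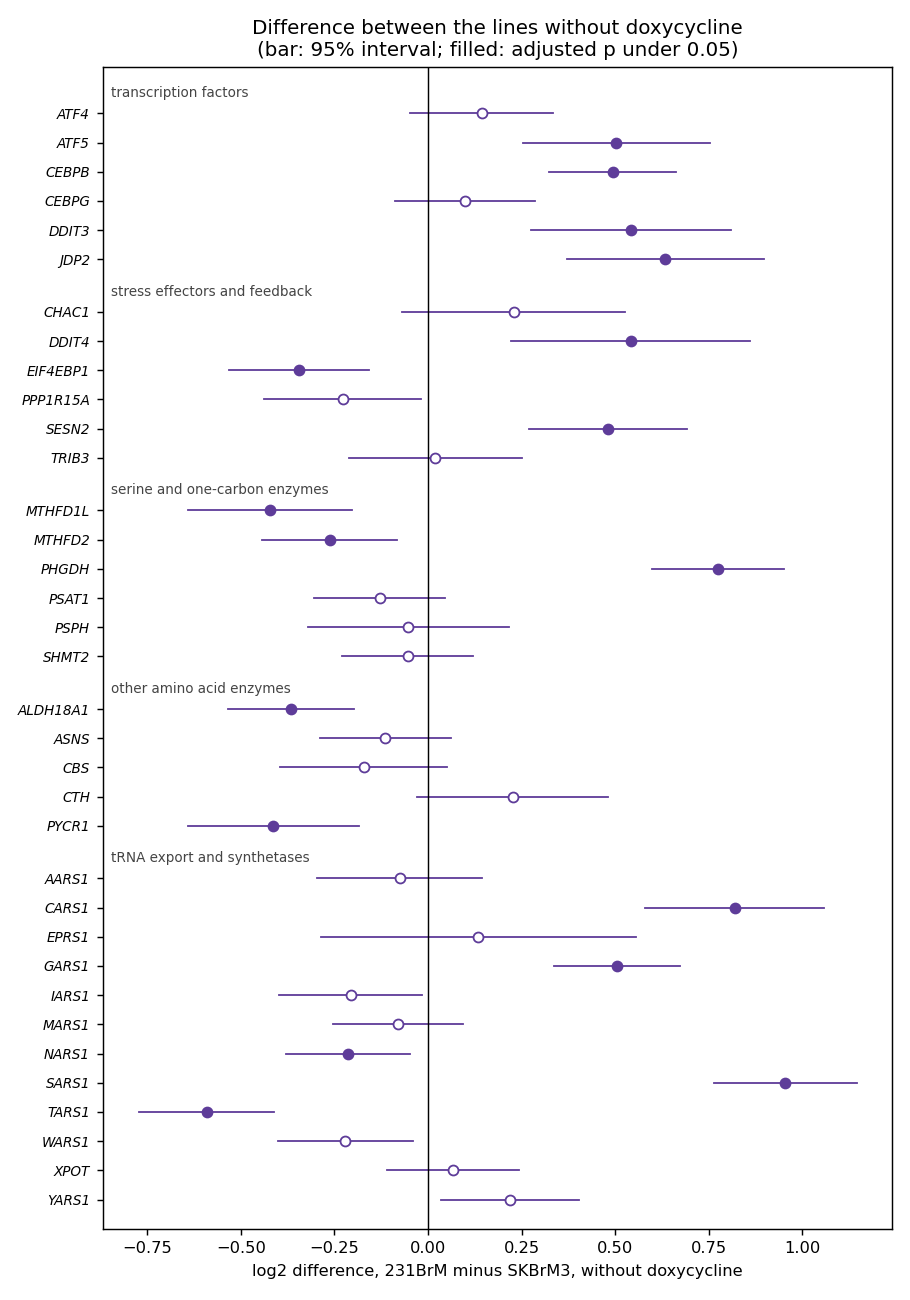
Log2 difference between the lines without doxycycline, 231BrM minus SKBrM3, of the 35 tested genes by role. Points are limma estimates from 2 arrays per group, bars 95% intervals, and filled points have an adjusted p under 0.05: 10 lie right of 0 and 7 left of it.

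Other genes of the pathway, from 7 written lists with 64 tested genes, were also rarely called with doxycycline. In 231BrM 0 of 64 were called by limma, beside 0.162% of all genes. At an unadjusted p under 0.05, 4 were higher and 2 lower, beside 6.15% and 3.74% of all genes. Among SKBrM3 arrays 0 were called, beside 3.43% of all genes. At an unadjusted p under 0.05, 6 were higher and 10 lower there, beside 10.4% and 9.81% of all genes. The median differences of the 64 were 0.05 and -0.03. SFXN1, of the other one-carbon and glycine enzymes, had the lowest value of the 64 in both lines. It differed by -0.53 in 231BrM and -0.68 in the SKBrM3 arrays, and by -0.61 over both lines, with no call. SFXN1 was 7.45 and 8.45 with doxycycline in 231BrM, against 8.28 and 8.68 without. The 7.45 is that of replicate 1, the array that stood apart, and the 8.45 of replicate 2 lay between the control values. Its 231BrM difference, and its rank there, therefore rest on replicate 1. The SKBrM3 arrays gave 8.72 and 8.85, against 9.40 and 9.54. Over both lines together 2 of 64 were called higher, beside 0.969% of all genes, and 0 lower, beside 2.07%. EIF2AK4, which encodes GCN2, the eIF2 kinase that senses uncharged tRNA, was 7.97 and 8.02 with doxycycline in 231BrM, against 7.77 and 7.75 without. SKBrM3 levels were 8.18 and 8.29, against 7.92 and 7.96, and the mean difference was 0.27 (SE 0.054, limma adjusted p = 0.0419). EARS2, the mitochondrial glutamyl-tRNA synthetase, was 6.18 and 5.89 with doxycycline in 231BrM, against 5.60 and 5.38 without. SKBrM3 levels were 6.27 and 6.42, against 6.08 and 6.05, and the mean difference was 0.41 (SE 0.083, limma adjusted p = 0.0419). Neither EIF2AK4 nor EARS2 was called in a line alone, and how these 2 calls fare in the alternative fits is not given here. The 12 tested ATF4 targets that are not among the 38, amino acid transporters and VEGFA among them, held 0 called genes in either line by limma. At an unadjusted p under 0.05, 0 were higher and 2 lower in 231BrM, beside 6.15% and 3.74% of all genes, and 0 higher and 4 lower in the SKBrM3 arrays, beside 10.4% and 9.81%. Their medians were -0.04 and -0.10.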

How the data were processed

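Total RNA of 8 samples was measured on 8 arrays. The deposited values are log2 intensities per probe set, made by the authors with RMA, per the submitters' processing notes; its version is not given in the sources used here. RMA equalizes the arrays' distributions, which hides a change in total RNA, and small changes of many genes are measured relative to the rest. Of 49386 probe sets, 45253 name 1 gene, 1327 several and 2713 none (93 are controls). Current symbols came from RefSeq (GRCh38.p14, matched on gene ID), which gave 18239 genes, each read from its brightest probe set. Tested genes had 2 or more arrays above 4.41 (40th percentile of the table).

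Log2 values were fitted with limma 3.58.1 (R 4.3.3) as 4 group means over 8 arrays (4 residual and 4.60 prior degrees of freedom), two-sided, with Benjamini-Hochberg adjustment over 13002 genes and calls at 0.05. The steps were tested on simulated data. Precision is limited by the number of arrays, and the median SE of a doxycycline effect was 0.0968. Members and lists were chosen with earlier results of these data known. Values on every array are given for ATF4, genes called after doxycycline, the 6 smallest p-values per line, and the 6 largest called line differences. From the other lists, up to 3 called genes are named per comparison, and SFXN1 for its lowest value. ASNS, TRIB3, EPRS1 and other members named outside this rule complete a role. Alternatives covered the filter, probe sets, scaling, spread, arrays in the fit, a replicate block and each array left out.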

Additional observations from a re-analysis of the deposited data

How the results depend on the processing

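With 2 arrays per group, most calls of single genes depended on the arrays used to estimate the spread, and a fit that leaves a group with 1 array assumes that it varies like the others. In 231BrM the 1 called gene became 0 with array weights and in the 4 arrays of the line alone, beside 0.0846% and 0.00769% of all genes. In the SKBrM3 arrays 3 genes were called, beside 3.43% of all genes. They became 7 with array weights, beside 12.3% of all genes, and 5 with a trend in the spread, beside 4.5%. In the 4 arrays of the line alone they became 6, beside 9.6%. Over both lines 3 became 5 with the trend, beside 3.04% and 4.04% of all genes. The 3 were among the called genes each time. Leaving out each array in turn gave 0 to 6 called genes in 231BrM, 0 to 7 in the SKBrM3 arrays, 1 to 8 over both lines, 0 to 2 for the difference of the effects and 11 to 20 between the lines without doxycycline. The 6, the 8 and the 2 all came without 231BrM doxycycline replicate 2, which leaves the apart-lying array alone in its group. Without that array, replicate 1, the counts were 1, 7, 4 and 0. Over the arrays left out, the share of all genes called rose and fell with these counts, so the shifts are not particular to the list. The other filters, probe sets and scaling kept the counts of the doxycycline comparisons at 1, 3, 3 and 0.

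Replicate numbers did not pair the arrays by the rule used: deviations of same-numbered arrays correlated at 0.24 in 231BrM and -0.01 in the SKBrM3 arrays, from 2 pairs. A fit with the replicate block gave 1 called gene in 231BrM, 4 in the SKBrM3 arrays and 4 over both lines. Of all genes 0.154%, 3.71% and 3.4% were called there. The block added ATF5 (limma adjusted p = 0.0295) and DDIT3 (0.029) in the SKBrM3 arrays and dropped XPOT (0.0515).

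Signs changed for some values that were not called, all near 0. The difference of the DDIT4 effects between the lines was -0.05 without 231BrM control replicate 2, -0.09 without 231BrM doxycycline replicate 2, -0.21 without SKBrM3 control replicate 2 and -0.07 without SKBrM3 doxycycline replicate 1, in a range of -0.21 to 0.21 over arrays left out. That of EIF4EBP1 was 0.021 without _x_at and _s_at probe sets and ran from -0.11 to 0.050 over arrays left out, the highest without 231BrM doxycycline replicate 2. In 231BrM, ATF5 differed by -0.0030 as the mean of its probe sets. There DDIT3 ran from -0.061 to 0.28 and CBS from -0.049 to 0.13 over arrays left out, both lowest without doxycycline replicate 1 and highest without replicate 2, and CBS was also below 0 without control replicate 1 (-0.0078). The causes were not tested.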

Other observations

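The lines also differed without doxycycline in pathway genes outside the 38, beside 19.8% of all genes higher and 19.9% lower in 231BrM (limma). Of 64 tested genes 14 were higher in 231BrM and 26 lower. The 14 include 2 genes, MTHFD2L and VLDLR, that passed the filter only through 231BrM, where they are high. GLUL, which makes glutamine, was 2.01 log2 units higher in 231BrM (SE 0.092, limma adjusted p = 1.69e-06), while the mitochondrial aspartate aminotransferase GOT2 was lower by 0.87 and the glutamate dehydrogenase GLUD1 by 0.55. Of 6 glutathione and methionine cycle genes 2 were higher and 3 lower: GCLM, the modifier subunit of the first enzyme of glutathione synthesis, was 1.11 higher, and AHCY (-0.64) and GSS (-0.58) were lower. Of 7 other one-carbon and glycine enzymes, SHMT1, the cytosolic counterpart of SHMT2, was 1.00 lower and MTHFD1 0.39 lower in 231BrM. MTHFD2L, a relative of MTHFD2, was called higher in 231BrM, at 5.19 and 5.29, but its SKBrM3 values of 4.36 and 4.35 lay under the filter level of 4.41, so no size is given.

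Of 9 other cytosolic synthetase genes and their scaffold proteins, 6 were lower in 231BrM and 0 higher, among them KARS1 (-0.74), LARS1 (-0.60) and FARSB (-0.58). Of 16 mitochondrial synthetases 7 were lower and 1, TARS2 (0.46), was higher, with NARS2 at -0.59 and MARS2 at -0.50. Of 12 other ATF4 targets 6 were higher and 2 lower: NIBAN1 (1.07) was higher and ERO1A (-0.60) lower. VLDLR, 1 of the 6 called higher, was at 5.08 and 4.99 in 231BrM, against 3.71 and 3.97 in the SKBrM3 arrays. Those values lie under the filter level, so VLDLR was tested only because of 231BrM, and no size is given. Of 6 genes of eIF2 and its kinases and phosphatase, PPP1R15B (0.58) and EIF2AK1 (0.28) were higher and EIF2S1, the phosphorylated subunit itself, was lower (-0.33).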
